A study of Mus musculus with 5 samples.

Results

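The nuclear genes of the mitochondrial respiratory chain were followed across the cell classes of mouse bone marrow and across 5 days after transplantation of leukemia cells. Members were taken by symbol alone. All annotated genes whose symbol begins with Ndufa, Ndufb, Ndufc, Ndufs, Ndufv, Uqcr, Cox4i, Cox5, Cox6, Cox7, Cox8 or Atp5 were kept and pseudogene symbols with -ps were left out, which gave 88 of the 28692 genes in the files. They held 2.04% of all UMIs (unique molecular identifiers, 1 per captured RNA molecule) in cells. The rule used no measured value.

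The animals were C57BL/6J mice, 8 weeks old by the study's methods and not irradiated, and each of the 5 had received 1000 BCR-ABL1 pre-B acute lymphoblastic leukemia cells through the tail vein. The day 0 mouse was killed right after the injection and served as the starting point, and the other 4 were killed at day 3, 6, 9 or 12, so that all animals carried transplanted cells and no untreated animal was included. Marrow flushed from femurs and tibias was pooled with cells freed from the crushed bones by collagenase, red cells were lysed, and the cells were frozen before 10x Genomics 3' libraries were made, 1 library per mouse. Each day is therefore 1 animal, no test between days was possible, and leukemic and normal pro/pre-B-like cells were not told apart.

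The respiratory chain passes electrons from NADH and succinate to oxygen and uses the energy to pump protons, and ATP synthase lets the protons flow back to make ATP. Complex I takes electrons from NADH, complex III hands them to cytochrome c, complex IV reduces oxygen, and all of these but complex II, which the rule does not reach, also contain subunits made from mitochondrial DNA. Neutrophils are known as cells that rely mainly on glycolysis and keep few mitochondria, while dividing precursors build mitochondrial mass. The members comprised 38 genes of complex I, 7 Ndufaf genes that encode complex I assembly factors, 8 genes of complex III, 18 of complex IV and 17 with ATP synthase symbols. By present knowledge Ndufa4 belongs to complex IV and Atp5sl encodes an assembly factor of complex I, but both were counted under their symbols.

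Barcodes with at least 500 UMIs were used as cells, 5474 to 7604 per library, from libraries of 33425695 to 43554233 UMIs. Cells were clustered without the members and without mitochondrially encoded genes, and 14 classes with at least 20 cells in each library were named from marker genes with the ending "-like". Pairs of libraries shared 44 to 73 barcodes. The median mitochondrial share per cell was 0.691% in the day 12 library, against 1.66% to 2.19% in the others. Pooled over cells, day 12 (1.91%) was near day 0 (2.16%), and days 3, 6 and 9 had 2.99% to 3.27%. A pro/pre-B-like cluster of high UMI content held 137 cells at day 3 and 7 or fewer in any other library. Barcodes with at most 100 UMIs, which hold free RNA, carried 183 to 216 member UMIs per 10000 UMIs, close to the 194 to 213 of all cells. For Cox6a2, Cox6b2, Cox7a2l and Atp5g1 the level in those barcodes was computed and is given with their main results. It was not computed for the other members.

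Promoters are shown for 3 members on which the results turn, 1 high in cycling cells, 1 low in them and 1 at an extreme in the day 12 library. Cox6a2, which also carries results, is named only. Atp5g1 encodes subunit c, the ring-forming subunit of ATP synthase, and is known with Atp5g2 and Atp5g3 to give the same mature protein. Cox7a2l encodes SCAFI, a relative of the Cox7a subunits that joins complexes III and IV, of which C57BL/6 mice are known to carry a shortened form. Atp5l encodes subunit g of the membrane part of ATP synthase. The windows run from 250 bases before to 50 bases after the RefSeq start (GRCm38.p6), all on the minus strand of the genome and printed in the direction of transcription, at chr11:96075582-96075881, chr17:83514284-83514583 and chr9:44920693-44920992. Capitals mark matches on either strand to 3 motifs, the ETS motif CCGGAAG, the NRF1 motif GCGCATG and the CCAAT box.
Atp5g1: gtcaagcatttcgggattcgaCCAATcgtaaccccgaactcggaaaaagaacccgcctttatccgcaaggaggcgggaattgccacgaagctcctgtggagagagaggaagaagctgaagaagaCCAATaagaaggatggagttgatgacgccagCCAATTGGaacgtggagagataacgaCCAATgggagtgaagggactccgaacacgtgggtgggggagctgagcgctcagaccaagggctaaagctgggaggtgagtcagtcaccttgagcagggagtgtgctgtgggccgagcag
Cox7a2l: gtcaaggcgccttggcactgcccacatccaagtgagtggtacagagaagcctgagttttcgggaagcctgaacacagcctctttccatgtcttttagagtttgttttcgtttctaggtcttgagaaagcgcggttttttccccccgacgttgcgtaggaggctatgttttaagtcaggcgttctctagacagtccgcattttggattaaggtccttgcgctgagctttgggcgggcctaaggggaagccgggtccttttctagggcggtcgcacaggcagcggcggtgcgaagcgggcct
Atp5l: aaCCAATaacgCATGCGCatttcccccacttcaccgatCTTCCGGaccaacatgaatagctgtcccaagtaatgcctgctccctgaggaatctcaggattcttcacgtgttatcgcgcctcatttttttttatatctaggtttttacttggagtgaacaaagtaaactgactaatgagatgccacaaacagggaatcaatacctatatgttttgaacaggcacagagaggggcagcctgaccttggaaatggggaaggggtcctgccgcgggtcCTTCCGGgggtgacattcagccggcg

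The Atp5g1 window held 5 CCAAT matches, of which a pair on opposite strands overlapped, and no match to the other motifs. The Atp5l window held 2 ETS matches, 1 NRF1 match and 1 CCAAT match, and that of Cox7a2l held none of the 3. The Cox7a2l window lies inside the annotated span of the gene, given below, and not at its upstream end. Only the first listed window of each gene was used, so the lack of matches describes that internal start. Of the 70 members with a RefSeq window, 14 (20%) held the ETS motif, against 9.12% of all 27025 windows, and 14 (20%) held the NRF1 motif against 4.04%. The CCAAT box was found in 30 (42.9%), against 37.9% of all windows. As many as 5 CCAAT matches were found in 2 of the 70 and in 0.285% of all windows. Matches to different motifs did not overlap in the printed windows, and a match describes the letters only.

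Summed over the members, the level per 10000 UMIs of a class ran from 344 ± 24.5 (SD, n = 5 libraries) in cycling pro/pre-B-like cells to 110 ± 4.22 in mature neutrophil-like cells, a 3.13-fold range. Cycling monocyte-like cells (312 ± 16.4), granulocyte-monocyte progenitor (GMP)-like cells (304 ± 14.9) and monocyte-like cells (280 ± 12.0) followed the cycling pro/pre-B-like cells. Stem and multipotent progenitor-like (257 ± 19.4), plasmacytoid dendritic-like (256 ± 6.08), NK-like (251 ± 9.41), non-cycling pro/pre-B-like (239 ± 8.34) and conventional dendritic-like cells (228 ± 13.4) lay in the middle. T-like (188 ± 5.53), mature B-like (179 ± 10.3) and neutrophil precursor-like cells (176 ± 2.87) were lower, and immature neutrophil-like cells had 131 ± 3.48. Library ranges of neighbors in this order overlapped, except that the lowest conventional dendritic-like library (217) lay above the highest T-like library (196), and that the 3 neutrophil-like classes were separated from each other.

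**Figure D1:**
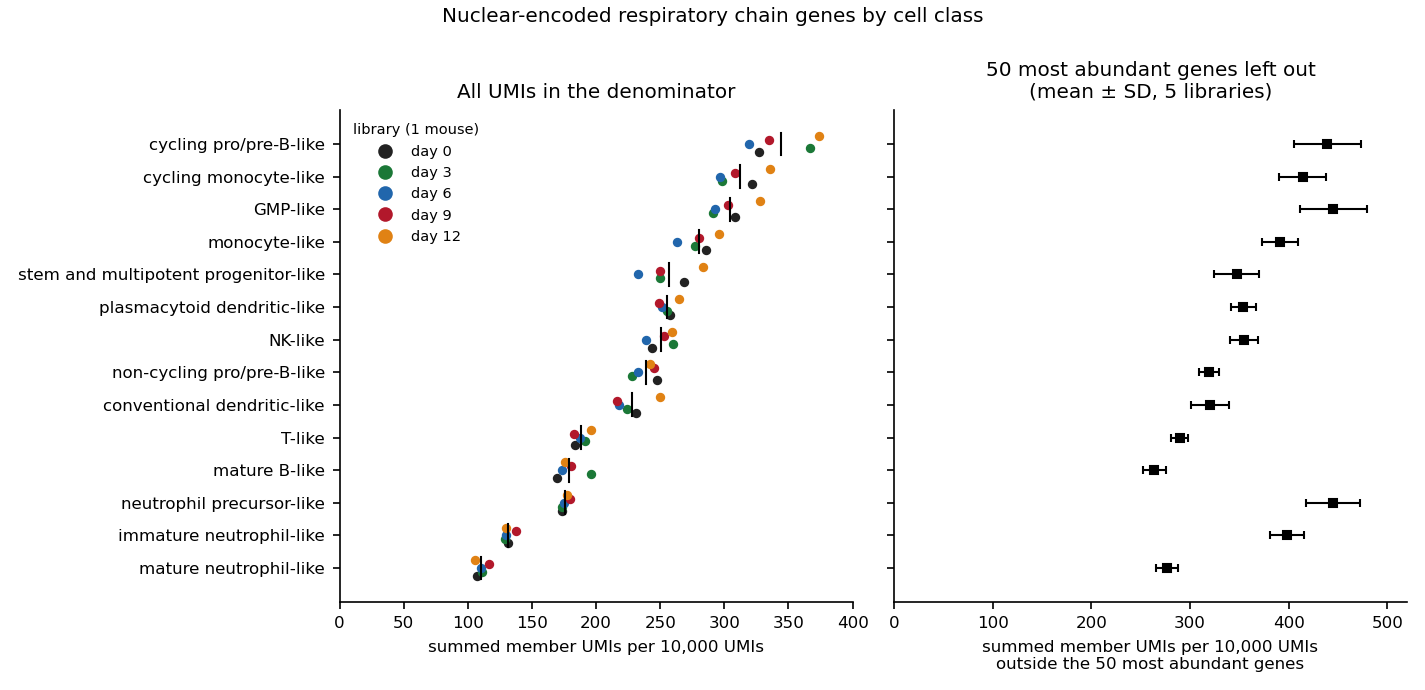
Summed UMIs of the 88 members per 10000 UMIs in 14 cell classes. On the left each point is 1 library, colored by day, and the line is the mean; on the right squares and bars are the mean ± SD of the 5 libraries with the 50 most abundant genes left out of the denominator. Neutrophil precursor-like cells stand at 176 on the left and at 445 on the right.

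The low level of the neutrophil-like classes depended on the denominator. The 50 most abundant genes of the data, led by S100a8, S100a9 and Camp, took 60.4%, 66.9% and 60.2% of the UMIs of precursor-like, immature and mature neutrophil-like cells and 21.5% to 35% elsewhere, and no member is among them. With these genes out of the denominator, neutrophil precursor-like cells had the highest level (445), beside GMP-like (445) and cycling pro/pre-B-like cells (439). Immature neutrophil-like cells then had 398, mature neutrophil-like cells 277 and mature B-like cells, now the lowest, 264, and the range narrowed to 1.69-fold. Mature neutrophil-like cells stayed below neutrophil precursor-like cells on either denominator. The median UMI count per cell was 10872 in precursor-like, 4427 in immature and 2059 in mature neutrophil-like cells.

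Every complex followed the same broad order. Complex I genes summed to 106 ± 7.69 per 10000 UMIs in cycling pro/pre-B-like and 34.8 ± 1.41 in mature neutrophil-like cells. Complex IV genes had 97.0 ± 8.14 and 33.8 ± 1.75, ATP synthase genes 103 ± 7.88 and 30.2 ± 1.12, and complex III genes 35.6 ± 2.91 and 10.9 ± 0.366. The assembly factors summed to 2.41 ± 0.265 and 0.352 ± 0.0204. Plasmacytoid dendritic-like cells ranked 4th for complex IV genes (83.4 ± 1.03) and 7th for ATP synthase genes (70.2 ± 2.51). Cox6a2 alone gave 15.9 ± 1.83 of that complex IV sum, so the rank leans on a single gene.

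Of the 88 members, 71 had at least 50 UMIs in each of the 14 classes, and their range across classes was described on the scale of UMIs per 10000. The highest class was cycling pro/pre-B-like for 41 of the 71, while 22.7% of the 2792 genes that met the same minimum peaked there. The lowest class was mature neutrophil-like for 63, against 36.5% of those genes. The ratio of the highest to the lowest class had a median of 3.95 over the 71 members and of 5.52 over all 2792 genes. Atp5g1 had the widest range among the members, 15.5-fold. At the other end stood Ndufa13, which encodes the complex I subunit GRIM-19, with 1.77-fold.

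Of the 71 members, 30 peaked in another class than cycling pro/pre-B-like cells. Cycling monocyte-like cells were highest for 12, among them Cox5b, Ndufv1 and Uqcrc1, and GMP-like cells for 7, among them Ndufa4, Uqcrb and Uqcr11. Ndufb7, a complex I subunit on the intermembrane space side, was highest in neutrophil precursor-like cells, with 4.92 ± 0.168 per 10000 UMIs against 3.71 ± 0.390 in cycling pro/pre-B-like cells. Cox7a2l, Ndufaf3, Ndufs4 and Uqcrh peaked in non-cycling pro/pre-B-like cells. Atp5c1, Atp5l, Cox4i1 and Ndufa6 peaked in monocyte-like cells, and Atp5e and Ndufa13 in NK-like cells. The lowest class of Atp5l, Cox7a2l and Ndufa7 was neutrophil precursor-like rather than mature neutrophil-like. That of Cox8a, Ndufb9 and Uqcrh was immature neutrophil-like, that of Ndufb7 mature B-like and that of Ndufa3 stem and multipotent progenitor-like.

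**Figure D2:**
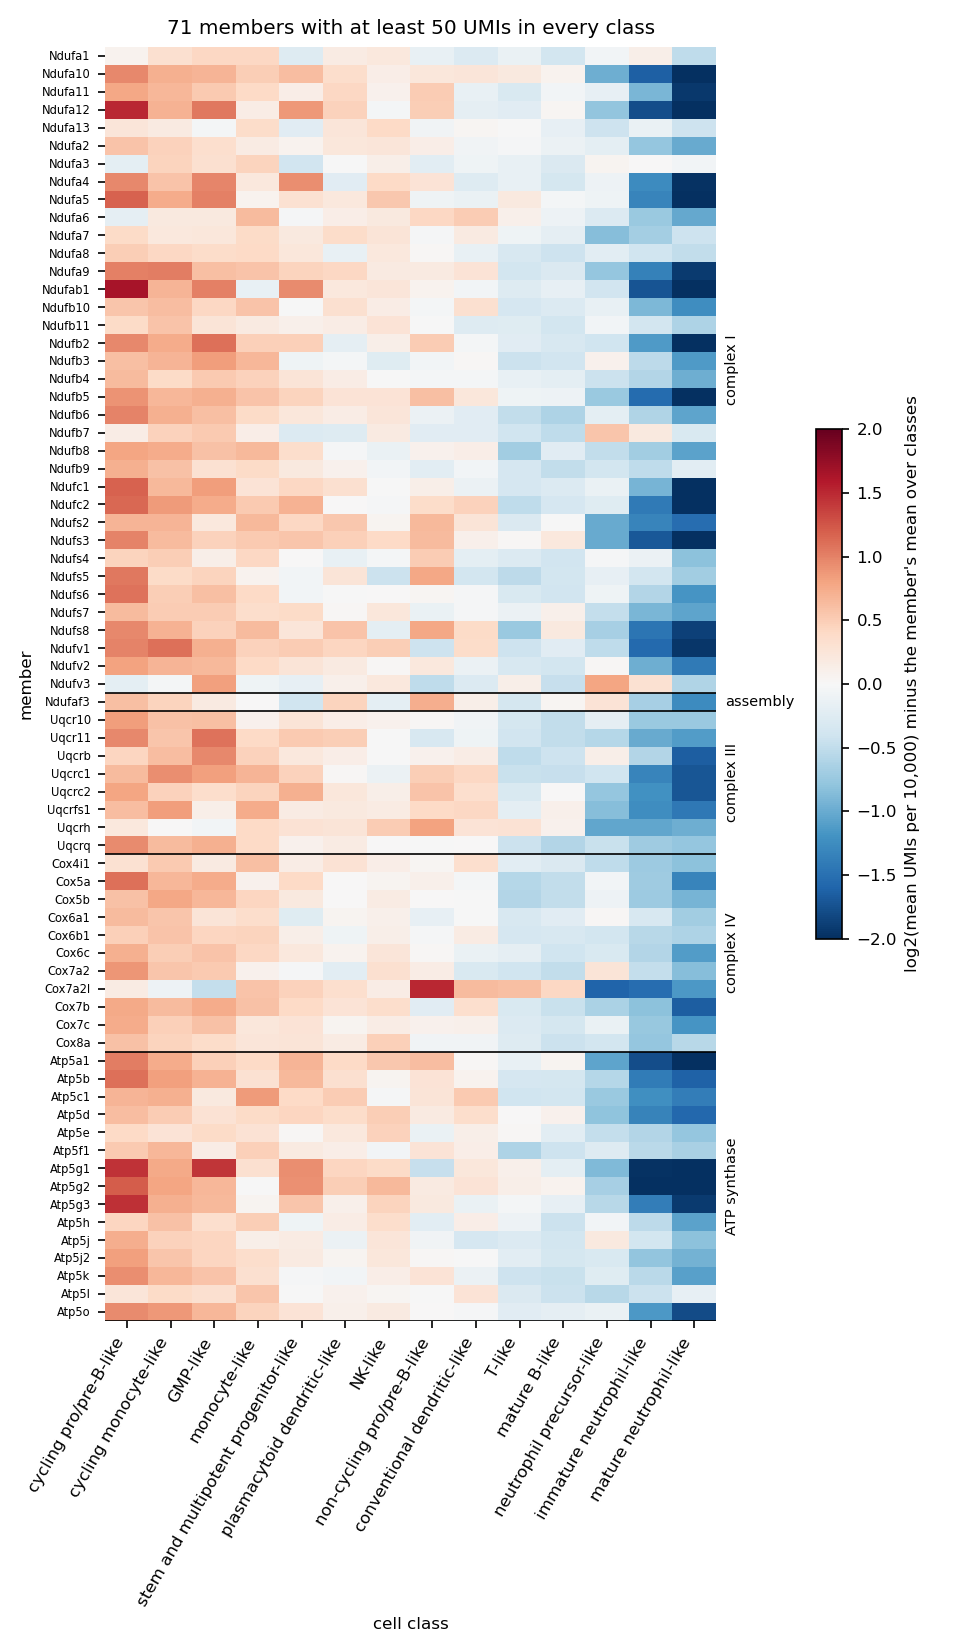
Heat map of the 71 members (rows, grouped by complex, with the 1 assembly factor marked) in 14 cell classes (columns, in order of summed level). Color gives log2 of the mean UMIs per 10000 over 5 libraries minus the member's own mean over classes, with values beyond 2 either way shown as 2; the rows of Cox7a2l and Ndufb7 differ from those around them.

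Classes were compared with edgeR's quasi-likelihood test on UMI counts summed per class and library, with the library as a block, over 10247 genes, of which 82 were members. A gene was called at a Benjamini-Hochberg adjusted p under 0.05. Log2 differences are on the TMM-normalized scale, which differs from UMIs per 10000 where abundant genes fill a class. The untested members were Cox4i2, Cox7a1, Cox7b2, Cox8b, Cox8c and Ndufa4l2, with 0 to 226 UMIs over all cells. The 6 comparisons share libraries, in part classes, and the same fit to all 70 sums of a class and library. Their counts are therefore not independent of each other, and the spread behind each p-value is estimated over all classes.

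Most members were lower in mature neutrophil-like than in neutrophil precursor-like cells. Of the 82 members, 58 were lower and 9 higher, that is 70.7% and 11%, where 32.2% of all genes tested were lower and 36.6% higher. The median log2 difference was -0.50 for the members and 0.10 for all genes. Complex I had 28 genes lower and 4 higher of 37, ATP synthase 13 lower and 1 higher of 17, complex IV 8 and 2 of 13, complex III 5 and 1 of 8, and the assembly factors 4 and 1 of 7. Under total-count scaling without TMM the counts were 71 lower and 3 higher, the median of all genes was -0.24 and that of the members -0.86.

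The steepest difference was in Cox6b2 (chr7:4751792-4753094 in the mm10 annotation), the testis-type isoform of complex IV subunit 6b. Its level was 0.393, 0.377, 0.361, 0.411 and 0.472 UMIs per 10000 in neutrophil precursor-like cells from day 0 to day 12, and 0.0508, 0.0353, 0.0507, 0.0648 and 0.0437 in mature neutrophil-like cells. The ranges did not overlap, and the log2 difference was -2.68 ± 0.16 (SE, edgeR adjusted p = 7.44e-26). Barcodes with at most 100 UMIs held Cox6b2 at 0.320, 0.233, 0.282, 0.423 and 0.276 in the same order of days, so that the precursor-like level was close to that of free RNA, and below it at day 9. Of the UMIs of Cox6b1 and Cox6b2 together, Cox6b2 gave 8.54 ± 0.884% in precursor-like and 1.33 ± 0.317% in mature neutrophil-like cells, beside 10.3 ± 2.51% in stem and multipotent progenitor-like and 9.64 ± 1.31% in GMP-like cells.

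Among complex I genes, Ndufa5 and Ndufc2 were the lowest in mature neutrophil-like cells by log2 difference. Ndufa5, a subunit of the matrix arm, had 0.856 to 0.927 UMIs per 10000 in the precursor-like and 0.124 to 0.190 in the mature class (log2 difference -2.12 ± 0.11, edgeR adjusted p = 5.35e-30). Ndufc2, a subunit of the membrane arm, had 1.43 to 1.78 and 0.324 to 0.443 (-1.68 ± 0.10, edgeR adjusted p = 3.13e-27). No library of either class overlapped the other class for these genes. All subunit c genes were lower, with log2 differences of -1.27 for Atp5g1, -1.53 for Atp5g2 and -0.99 for Atp5g3.

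The 9 members called higher were Cox7a2l, Ndufa7, Atp5l, Ndufaf7, Ndufb9, Uqcrh, Ndufa13, Ndufa3 and Cox8a, of which Ndufa3, Ndufa13 and Cox8a were below 0 under total-count scaling. Cox7a2l had 1.06 to 2.06 UMIs per 10000 in mature and 0.879 to 1.47 in precursor-like neutrophils, and was higher in the mature class within each library (log2 difference 0.80 ± 0.08, edgeR adjusted p = 3.15e-15). Both classes lay below the 2.63 to 4.07 of barcodes with at most 100 UMIs, and the part of free RNA was not tested. Ndufa7, a matrix arm subunit, had 1.86 to 2.28 and 1.5 to 1.62 (0.79 ± 0.09, edgeR adjusted p = 3.53e-13), and Atp5l had 7.32 to 8.25 and 5.49 to 6.86 (0.73 ± 0.07, edgeR adjusted p = 5.13e-15). For Ndufa7 and Atp5l the ranges did not overlap.

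**Figure D3:**
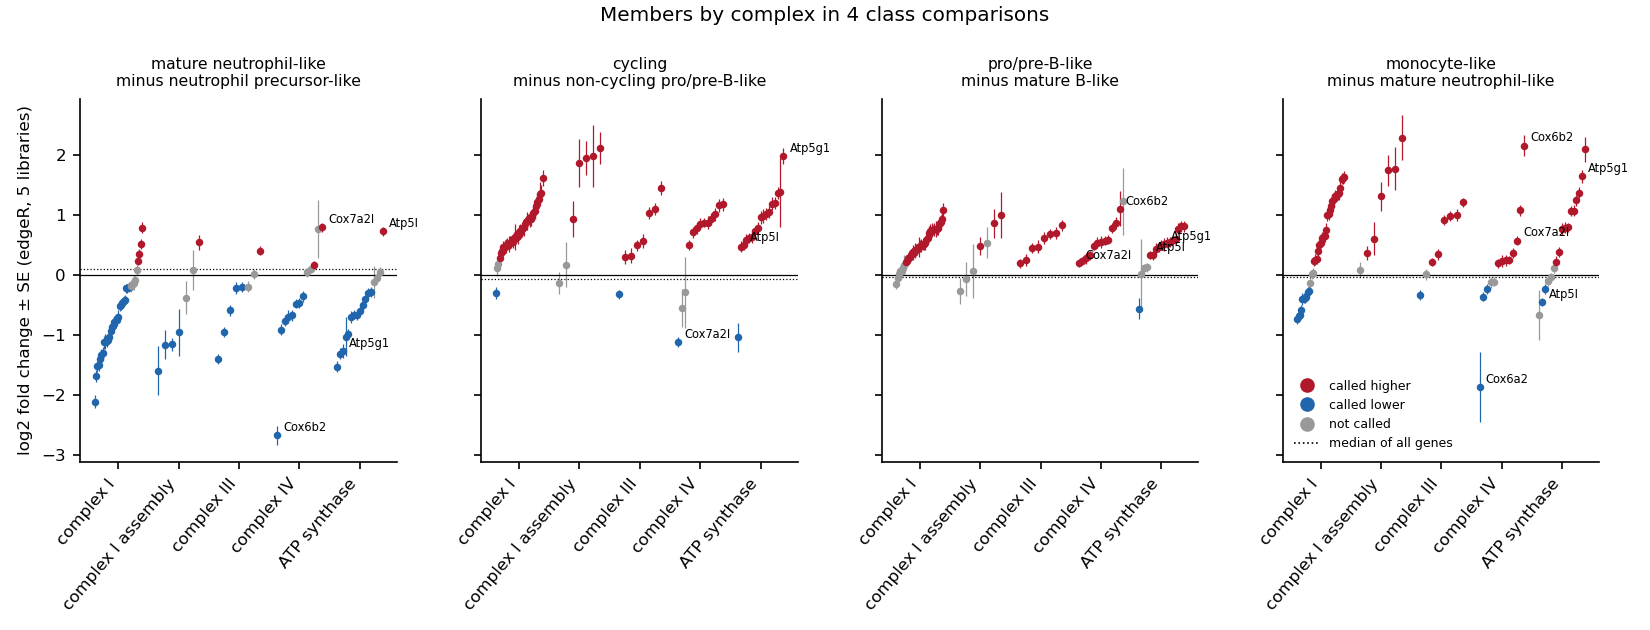
Log2 difference ± SE of the 82 tested members in 4 class comparisons, grouped by complex and sorted within it (edgeR, 5 libraries). Red and blue points passed an adjusted p of 0.05 as higher and lower, gray points did not, and the dotted line is the median of all genes; in the panel of mature against precursor-like neutrophils 58 members are blue and 9 red.

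Other mitochondrial genes were read from lists of known pathway members. In mature neutrophil-like cells 57 of 76 mitochondrial ribosomal protein genes were lower and 6 higher, and 9 of 13 genes of the tricarboxylic acid cycle were lower and 1 higher. Cycs and Cyc1, which encode cytochrome c and cytochrome c1, were both lower, with log2 differences of -1.39 ± 0.10 and -1.14 ± 0.11. Of 37 respiratory chain assembly factors outside the rule 18 were lower and 7 higher. All 12 proliferation genes were lower, with a median of -3.26, and their part in the member differences was not tested. Slc25a3, Slc25a4 and Ucp2 (mitochondrial carriers) were higher and Slc25a5, Atpif1 and the 3 Vdac genes lower.

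The 13 mitochondrially encoded subunits went the other way, and this rested on 1 cluster. All 13 were called higher in mature neutrophil-like cells, with a median log2 difference of 1.30. Cluster 02, with 3051 cells and a median of 1511 UMIs, held 1016 ± 396 mitochondrially encoded UMIs per 10000, against 86.4 to 137 on average in the other mature clusters. The median mitochondrial share of its cells was 1.13%, so that the cells above the median held most of this sum. The member level of cluster 02, 111 ± 6.04, was like the 109 to 113 of the other mature clusters. Without that cluster 0 of the 13 were higher and 7 lower (median -0.37), and with cells over the mitochondrial limit removed 12 were lower (median -0.64). The limit was set on these same genes, and the cluster was left out after its level was seen. A fall was therefore favored in advance. The members gave 9 higher and 57 lower without the cluster.

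**Figure D4:**
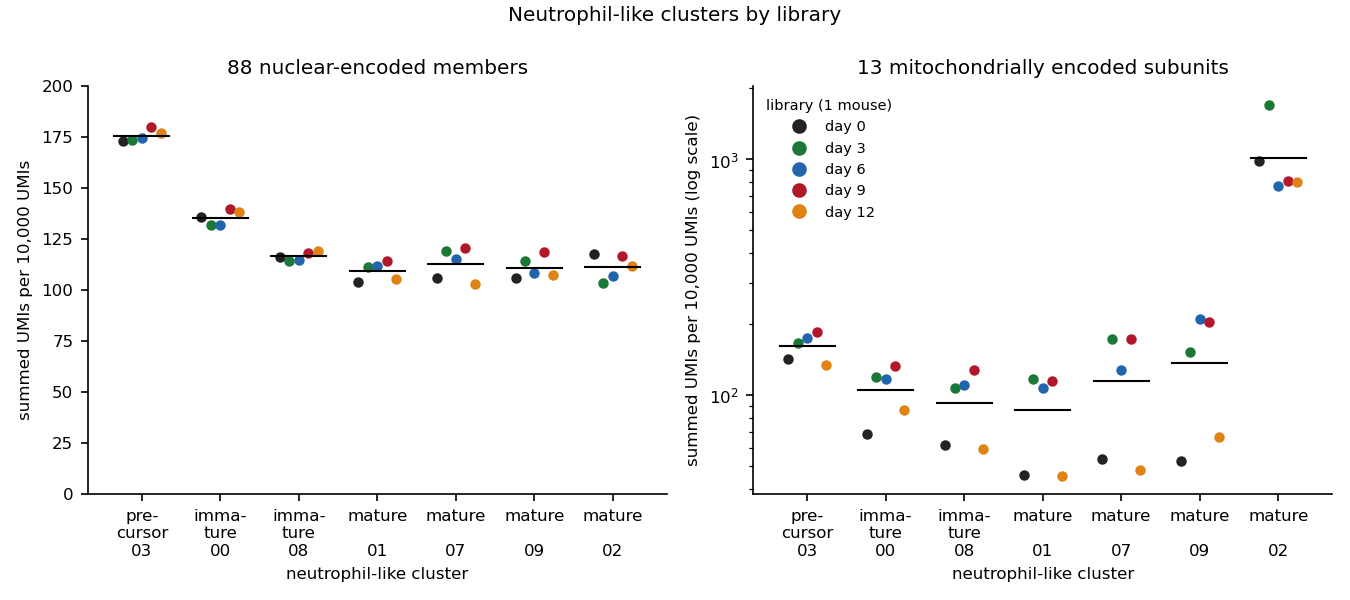
Summed UMIs per 10000 of the 88 members (left, linear axis) and of the 13 mitochondrially encoded subunits (right, log axis) in the neutrophil-like clusters. Points are libraries colored by day and lines are means over 5 libraries; mature cluster 02 stands at 111 on the left with the other mature clusters and at 1016 on the right.

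Monocyte-like cells had more of most members than mature neutrophil-like cells. Of 82 members 55 were higher and 16 lower (67.1% and 19.5%), where 35.7% of all genes were higher and 37.1% lower, and the medians were 0.45 and -0.03. The split depended on the scaling: with total counts in place of TMM, 80 members were higher and 0 lower, and the median of all genes moved to 1.12. Of the 16 members called lower, 15 were above 0 on that scale, among them Ndufb7, Ndufa3, Ndufv3, Ndufb9 and Atp5l, and the exception was Cox6a2. Cox6a2 had means of 0.0300 and 0.0501 UMIs per 10000 in these classes, below the 0.0997 to 0.729 of barcodes with at most 100 UMIs.

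The largest positive differences were in Ndufaf5, Cox6b2 and Atp5sl, all of low level. Ndufaf5, which encodes an assembly factor that hydroxylates a complex I subunit, had 0.0607 to 0.112 UMIs per 10000 in monocyte-like and 0.00318 to 0.0132 in mature neutrophil-like cells (log2 difference 2.29 ± 0.37, edgeR adjusted p = 8.66e-08). Cox6b2 had 0.431 to 0.585 against the values given above (2.16 ± 0.17, edgeR adjusted p = 2.19e-19), and Atp5sl 0.161 to 0.239 against 0.0159 to 0.0245 (2.1 ± 0.21, edgeR adjusted p = 6.65e-15). None of these ranges overlapped. Around them, 64 of 76 mitochondrial ribosomal protein genes, 9 of 13 genes of the tricarboxylic acid cycle, 3 of 4 complex II genes and both cytochrome genes were higher. The mitochondrially encoded subunits were lower in 13 of 13 (median -1.40), but without mature neutrophil cluster 02 they were higher in 7 of 13 and lower in 0 (median 0.33).

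In the B lineage the members were higher in the average of the pro/pre-B-like classes. With the 2 pro/pre-B-like classes averaged and set against mature B-like cells, 66 members were higher and 1 lower (80.5% and 1.22%), where 21.2% of all genes were higher and 22.5% lower, and the medians were 0.49 and -0.03. With total counts in place of TMM, 74 were higher and 0 lower, with an all-gene median of 0.16. The average includes the cycling class, and non-cycling against mature B-like cells was not tested alone. Summed levels were 344 in cycling, 239 in non-cycling and 179 in mature B-like cells. The non-cycling clusters had means of 216 and 270, and the larger mature clusters 164 and 212. All 8 complex III genes, 12 of 13 complex IV genes, 30 of 37 complex I genes, 13 of 17 ATP synthase genes and 3 of 7 assembly factors were higher. The lower member was Atp5sl, with -0.57. Beside them 50 of 76 mitochondrial ribosomal protein genes, all 8 carrier and porin genes and 11 of 12 proliferation genes were higher, while 7 of 13 mitochondrially encoded subunits were lower and 1 higher.

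Ndufs5, a complex I subunit on the intermembrane space side, had 3.28, 4.69, 3.26, 3.45 and 3.26 UMIs per 10000 from day 0 to day 12 in cycling pro/pre-B-like cells and 2.43 to 3.17 in non-cycling ones. Mature B-like cells had 1.17 to 1.5, below every library of both other classes, and the log2 difference was 1.09 ± 0.11 (edgeR adjusted p = 4.30e-14). Cox6b2 had a difference of 1.11 ± 0.30 (edgeR adjusted p = 0.00139) at mean levels of 0.240 and 0.0814. Neither was above the free RNA range of 0.233 to 0.423 and the latter was below it. The part of free RNA in these levels was not tested. Ndufaf6, an assembly factor with 25 UMIs in all mature B-like cells, had 1 ± 0.38 (edgeR adjusted p = 0.0273), and this call was lost under 9 of 15 alternatives.

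Most members were higher in cycling than in non-cycling pro/pre-B-like cells. In the cycling class 72 members were higher and 4 lower (87.8% and 4.88%), where 22% of all genes were higher and 20.3% lower, and the medians were 0.78 and -0.06. The higher members were 16 of 17 ATP synthase genes, 34 of 37 complex I genes, 10 of 13 complex IV genes, 7 of 8 complex III genes and 5 of 7 assembly factors. With total counts in place of TMM, 63 were higher and 5 lower, with an all-gene median of -0.30. The 12 proliferation genes, which were used to split these classes, are no finding. All 4 complex II genes, 57 of 76 mitochondrial ribosomal protein genes, 8 of 13 genes of the tricarboxylic acid cycle and both cytochrome genes were higher, Cycs by 1.46 ± 0.12. Of the 13 mitochondrially encoded subunits 0 were higher and 1, mt-Co1, was lower.

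Atp5g1 (chr11:96068852-96075670 in the annotation), whose promoter is printed above, had 5.89, 7.99, 4.72, 4.80 and 7.61 UMIs per 10000 in cycling cells from day 0 to day 12. In non-cycling cells it had 2.19, 1.37, 1.81, 1.71 and 1.14, the last from 7 UMIs. Barcodes with at most 100 UMIs held 2.70, 2.61, 1.94, 2.06 and 2.1, above the non-cycling and below the cycling level in each library. The classes did not overlap, and the log2 difference was 1.98 ± 0.13 (edgeR adjusted p = 6.08e-22). The other subunit c genes were higher by less, Atp5g3 by 1.37 and Atp5g2 by 1.20. The share of Atp5g1 among the UMIs of the 3 genes was 28.9 ± 3.99% in cycling and 19.1 ± 3.00% in non-cycling cells, and it reached 39.0 ± 2.18% in GMP-like cells. In immature and mature neutrophil-like cells the share of Atp5g3 was highest among the classes, at 36.5 ± 2.94% and 35.6 ± 3.90%.

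Low-level assembly factors also differed between the cycling and non-cycling classes. Ndufaf2 had 0.390 to 0.766 UMIs per 10000 in cycling and 0.147 to 0.324 in non-cycling cells (log2 difference 2.12 ± 0.26, edgeR adjusted p = 1.62e-10), from 28 UMIs in the latter. Ndufaf5 rested on 7 UMIs in non-cycling cells, with 0 in 2 libraries, and had 1.98 ± 0.52 (edgeR adjusted p = 0.00108).

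Members lower in cycling cells were Cox7a2l, Atp5sl, Uqcrh and Ndufa6. Cox7a2l (chr17:83501918-83517330 in the annotation) had 10.5, 11.4, 10.8, 10.3 and 9.57 UMIs per 10000 in non-cycling cells from day 0 to day 12 and 3.84, 3.66, 5.13, 4.82 and 3.14 in cycling cells. Barcodes with at most 100 UMIs held 3.91, 3.79, 4.07, 3.81 and 2.63, below the non-cycling level in each library. They were above the cycling level at days 0 and 3 and below it at days 6, 9 and 12. The non-cycling libraries lay above every other class, and the log2 difference was -1.12 ± 0.08 (edgeR adjusted p = 1.24e-19). Atp5sl had 0.0837 to 0.197 in cycling and 0.162 to 0.475 in non-cycling cells, ranges that overlapped between libraries but not within one (-1.04 ± 0.24, edgeR adjusted p = 0.000217). Uqcrh, the hinge protein of complex III that binds near cytochrome c1, had 7.64 to 8.16 and 9.73 to 15.9 (-0.33 ± 0.08, edgeR adjusted p = 0.000462). The cluster of 137 cells of day 3 lies in the cycling class, and without it the counts were 68 higher and 4 lower.

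Cox7a2l, Cox7a2 and the rare Cox7a1 encode related proteins, and the share of Cox7a2l among their UMIs was followed across classes. It was 66.0 ± 2.75% in non-cycling pro/pre-B-like, 60.3 ± 4.46% in T-like, 59.0 ± 5.78% in conventional dendritic-like and 58.4 ± 2.53% in mature B-like cells. It was 31.2 ± 6.24% in cycling pro/pre-B-like, 27.6 ± 6.33% in GMP-like and 17.2 ± 2.77% in neutrophil precursor-like cells, and 37.7 ± 5.97% in mature neutrophil-like cells. The classes between them had 52.3 ± 4.27% (plasmacytoid dendritic-like), 51.3 ± 4.10% (monocyte-like), 51.3 ± 4.98% (stem and multipotent progenitor-like), 40.1 ± 2.98% (NK-like) and 32.5 ± 3.83% (cycling monocyte-like), and immature neutrophil-like cells had 26.8 ± 4.48%. Library ranges of neighbors in this order overlapped, except between stem and multipotent progenitor-like (lowest 45.2%) and NK-like cells (highest 44.8%) and between immature (lowest 20.7%) and precursor-like neutrophils (highest 19.9%). Reads that fit related genes equally well are not counted by the pipeline used, so such shares can also carry differences in how uniquely each gene maps.

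**Figure D5:**
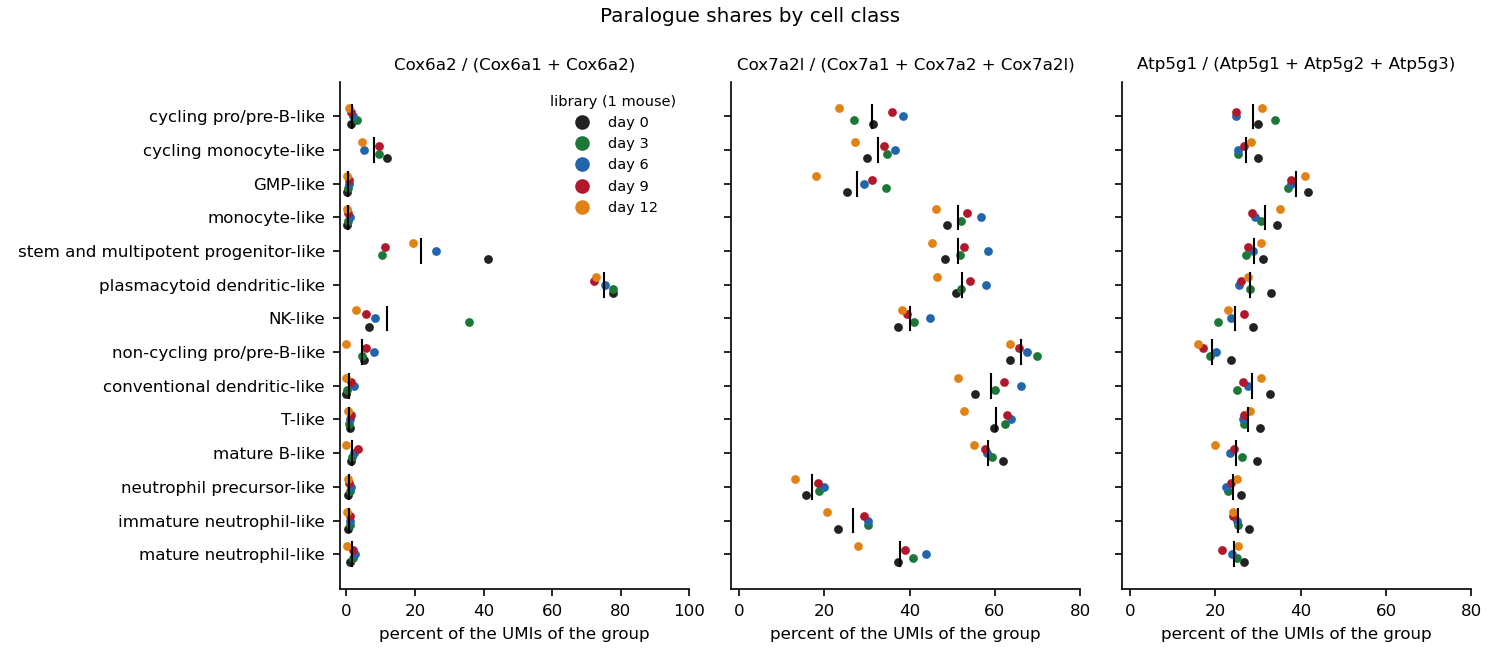
Shares of Cox6a2, Cox7a2l and Atp5g1 among the UMIs of their paralogue groups, in percent, by cell class. Points are libraries colored by day and lines are means over 5 libraries; Cox6a2 reaches 75.1% in plasmacytoid dendritic-like cells, Cox7a2l 66.0% in non-cycling pro/pre-B-like cells and Atp5g1 39.0% in GMP-like cells.

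NK-like and T-like cells differed in fewer members. In NK-like cells 18 members were higher and 1 lower (22.0% and 1.22%), where 6.27% of all genes were higher and 6.98% lower, and the medians were 0.17 and -0.05. The higher members included 6 of 13 complex IV genes, 5 of 17 ATP synthase genes, 6 of 37 complex I genes and 0 of 7 assembly factors. The count moved with the processing, to 54 higher and 1 lower with total counts in place of TMM (all-gene median 0.17) and to 5 higher and 1 lower without the day 9 library. In NK-like cells 11 of 12 proliferation genes were higher and 12 of 13 mitochondrially encoded subunits lower, and the part of either in the member differences was not tested. Markers of immature neutrophils, which neither class should make, summed to 90.3 ± 20.2 UMIs per 10000 in NK-like and 111 ± 17.3 in T-like cells.

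Cox5b, the zinc-binding subunit of complex IV, had 4.97 to 5.51 UMIs per 10000 in NK-like and 2.93 to 3.39 in T-like cells, without overlap (log2 difference 0.52 ± 0.09, edgeR adjusted p = 1.91e-06). Cox7a2l had 3.49 to 4.72 and 4.88 to 6.17 (-0.69 ± 0.09, edgeR adjusted p = 9.93e-10), also without overlap. The T-like range lay above the 2.63 to 4.07 of barcodes with at most 100 UMIs, and the NK-like range overlapped it. Ndufv1, the core subunit that binds NADH, had 0.356 to 0.751 and 0.228 to 0.366 (0.73 ± 0.22, edgeR adjusted p = 0.0135). These ranges overlapped, and this call was lost without the day 0, day 3 or day 9 library (edgeR adjusted p = 0.0613, 0.0987 and 0.111).

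Plasmacytoid dendritic-like cells differed from mature B-like cells above all in 1 gene. Cox6a2 (chr7:128205435-128206387 in the annotation) encodes the isoform of complex IV subunit 6a known from heart and skeletal muscle, while Cox6a1 is the widespread isoform. Its level in plasmacytoid dendritic-like cells was 17.0, 18.2, 16.2, 13.8 and 14.3 UMIs per 10000 from day 0 to day 12, the last from 203 UMIs of 32 cells. In mature B-like cells it was 0.0531, 0.0816, 0.0952, 0.165 and 0. The groups did not overlap, and the log2 difference was 7.29 ± 0.31 (edgeR adjusted p = 1.21e-33).

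Cox6a2 outnumbered Cox6a1 in no other class. It gave 77.9, 77.6, 75.3, 72.2 and 72.8% of the UMIs of Cox6a1 and Cox6a2 in plasmacytoid dendritic-like cells from day 0 to day 12, a mean of 75.1 ± 2.65%. Next came stem and multipotent progenitor-like cells with 21.7 ± 12.7%, NK-like cells with 11.9 ± 13.6% and cycling monocyte-like cells with 8.14 ± 3.16%, and all others had at most 4.68% on average. Of plasmacytoid dendritic-like cells 82.9% had a Cox6a2 UMI (95% interval 80.1% to 85.4%, exact binomial, counting error only, median depth 4513 UMIs). In T-like cells 1.07% did, at a median of 2395 UMIs. Their level pooled over libraries, 0.0378 per 10000, lay below the 0.0997 to 0.729 of barcodes with at most 100 UMIs. Shares near that of T-like cells are therefore not told apart from free RNA.

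Cells with at least 4 Cox6a2 UMIs were counted to find where the gene appears outside plasmacytoid dendritic-like cells. There were 533 in that class, 54 in cycling monocyte-like, 30 in stem and multipotent progenitor-like, 11 in cycling pro/pre-B-like (10 of them of day 3), 9 in NK-like, 2 in neutrophil precursor-like and 1 in non-cycling pro/pre-B-like cells. The 54 cycling monocyte-like cells had a median of 87.5 UMIs of plasmacytoid dendritic markers, against 5 in cells of that class without the gene, and the 30 progenitor-like cells had 17 against 3. The 9 NK-like cells had 3 against 1, and 6 of them came from the day 3 library. The same library gave the NK-like level of 3.13 UMIs per 10000, while the other 4 libraries had 0.168 to 0.534. All NK-like libraries were above every T-like library (0.0174 to 0.0524). Those other 4, however, lay within the 0.0997 to 0.729 of barcodes with at most 100 UMIs. The log2 difference between NK-like and T-like cells was 4.10 ± 0.67 (edgeR adjusted p = 1.44e-06). The remaining NK-like cells with at least 4 UMIs were 2 of day 0 and 1 of day 6.

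Apart from Cox6a2, plasmacytoid dendritic-like cells had moderately more of many members than mature B-like cells. In all 34 members were higher and 1, Cox7a2l, lower (41.5% and 1.22%), where 19.2% of all genes were higher and 17.4% lower, and the medians were 0.22 and -0.03. The count was 60 higher and 0 lower with total counts in place of TMM (all-gene median 0.11). Uqcr11, a small complex III subunit, had 3.44 to 4.37 UMIs per 10000 against 1.84 to 2.25 (log2 difference 0.83 ± 0.11, edgeR adjusted p = 5.37e-10), and Atp5c1, the gamma subunit of the central stalk of ATP synthase, 3.72 to 4.94 against 1.72 to 2.63 (0.67 ± 0.10, edgeR adjusted p = 1.29e-08). Both were without overlap. Tfam, which maintains and transcribes mitochondrial DNA, was lower by -1.12 ± 0.15 (edgeR adjusted p = 4.76e-09), 9 of 12 proliferation genes were lower and 5 of 13 mitochondrially encoded subunits were lower.

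The summed level at day 12 was above that at day 0 in 11 of 14 classes, and day 12 was the highest day in 8. The ratio of day 12 to day 0 lay between 0.976 in non-cycling and 1.14 in cycling pro/pre-B-like cells, the latter with 22 cells at day 12. It was 1.02 (95% interval 1.01 to 1.03) in neutrophil precursor-like, 0.992 (0.982 to 1) in immature neutrophil-like and 0.990 (0.976 to 1) in mature neutrophil-like cells. In monocyte-like cells it was 1.04 (1.03 to 1.05) and in mature B-like cells 1.04 (1 to 1.07). Intervals above 1 were also found in GMP-like (1.06, 1.05 to 1.07), T-like (1.07, 1.05 to 1.09), NK-like (1.07, 1.03 to 1.10), conventional dendritic-like (1.08, 1.04 to 1.12), cycling monocyte-like (1.04, 1.03 to 1.05) and stem and multipotent progenitor-like cells (1.05, 1.03 to 1.08). These are exact intervals for ratios of counts and cover counting error only, not differences between animals. An interval above 1 does not by itself set the members apart from other genes, whose median ratios follow below for some classes. The highest of the 5 days exceeded the lowest by 3.91% in neutrophil precursor-like cells and by 21.7% in stem and multipotent progenitor-like cells.

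Single members were set side by side at day 12 and day 0 where a class had at least 50 UMIs of them in both libraries, and a ratio of at least 1.5 either way was counted. In neutrophil precursor-like cells 1 of 74 members was past 1.5-fold higher and 0 lower, where 3.49% of all genes were higher and 2.07% lower. In immature neutrophil-like cells 0 of 74 were higher and 1 lower (6.48% and 1.84% of all genes), and in mature neutrophil-like cells 0 of 65 were higher and 1 lower (1.83% and 6.81%). In monocyte-like cells 0 of 73 were past the fold either way (3.54% and 1.15%), and in mature B-like cells 0 of 26 (5.51% and 0.501%). Median log2 ratios of members and all genes were 0.031 and 0.038 in monocyte-like and 0.069 and 0.074 in neutrophil precursor-like cells. They were -0.0201 and 0.066 in immature neutrophil-like, 0.013 and -0.081 in mature neutrophil-like and 0.083 and -0.035 in mature B-like cells. The member median was thus above that of all genes in mature neutrophil-like and mature B-like cells only. Clusters within a class changed their shares by day: in the day 0 library cluster 08 made up 339 of 1134 immature neutrophil-like cells, and in the day 12 library 894 of 1762. Mature cluster 02 went from 270 of 1500 to 358 of 2051. Their part in these ratios was not tested.

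The member past the fold in neutrophil precursor-like cells was Ndufs1, the largest iron-sulfur subunit of complex I, with 0.0931, 0.150, 0.176, 0.176 and 0.146 UMIs per 10000 from day 0 to day 12 and a ratio of 1.57 (1.09 to 2.26). Day 0 was the low library there, and days 3 to 12 were alike. In immature neutrophil-like cells it was Cox6b2, with 0.145, 0.103, 0.105, 0.141 and 0.0895 and a ratio of 0.616 (0.442 to 0.855). All of these levels lay below the 0.233 to 0.423 of barcodes with at most 100 UMIs. In mature neutrophil-like cells the member past the fold was Ndufs8, another iron-sulfur subunit, with 0.321, 0.324, 0.304, 0.340 and 0.206 and a ratio of 0.642 (0.481 to 0.855). Day 12 was the lowest library for both.

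Ratios of the other named members stayed under 1.5-fold. In mature neutrophil-like cells Cox7a2l had a ratio of 0.676 (0.596 to 0.766), Ndufb6 1.43 (1.17 to 1.75), Ndufa8 1.37 (1.18 to 1.60) and Ndufa12 0.727 (0.522 to 1.01). In immature neutrophil-like cells Ndufaf7 had 1.40 (1.01 to 1.97), Ndufv2 0.777 (0.668 to 0.903), Atp5g3 1.27 (1.13 to 1.44) and Ndufa10 0.790 (0.608 to 1.03). In precursor-like cells Ndufv1 had 1.32 (1.04 to 1.68), Atp5g3 1.31 (1.18 to 1.45), Ndufa11 1.25 (1.13 to 1.38) and Cox7a2l 0.821 (0.726 to 0.927). In monocyte-like cells Ndufaf3 had 0.730 (0.535 to 0.990), Ndufc2 1.30 (1.17 to 1.45) and Ndufb3 1.23 (1.11 to 1.36), and in mature B-like cells Ndufa13 had 1.30 (1.01 to 1.66).

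A few members were at an extreme in the day 12 library in nearly all classes. Atp5l was highest at day 12 in 14 of 14 classes and Ndufa1, a small complex I subunit, in 12, while Cox7a2l was lowest in 13. An extreme at day 12 in at least 12 classes was found for 2 members as highest and 1 as lowest of 71, where 0.501% and 2.33% of 2792 genes met the same counts. For the lowest, the share of members was thus not above that of all genes. In monocyte-like cells Atp5l had 13, 11.8, 11.2, 12.7 and 15.7 UMIs per 10000 from day 0 to day 12. Cox7a2l had 5.12, 5.55, 6.20, 5.90 and 4.66 there, and barcodes with at most 100 UMIs showed the same low day 12 value, 2.63 against 3.79 to 4.07. A property of the day 12 mouse and of its library cannot be told apart.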

How the data were processed

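UMI counts per gene and barcode were used as deposited by the authors, unfiltered, from 5 libraries of 10x Genomics 3' chemistry; the submitters' processing notes name Cell Ranger and the mm10 build. Barcodes with at least 500 UMIs were kept (5474 to 7604 per library, median 2874 to 3786 UMIs). Cells were clustered with scanpy 1.11.5 and Leiden at resolution 1 on 718 variable genes, without members or mitochondrially encoded genes, and clusters were named from marker genes. The names are rebuilt and can differ from the study's. Scrublet called 155, 0, 1, 0 and 2 cells in the 5 libraries and so did not work in 4 of them; removing its calls, or the highest 5% of scores, were alternatives, as was a limit on the mitochondrial share.

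UMIs were summed per class and library (at least 20 cells) and tested with edgeR 4.0.16 (quasi-likelihood, TMM, library as a block, filterByExpr) in R 4.3.3, adjusted over all 10247 genes. All 70 sums went into the same fit, so the estimate of spread for a gene also draws on classes outside the comparison. Each library is 1 mouse of another day, so the p-values rest on 5 mice that differ in day. Beyond the library block, classes of the same mouse were treated as separate samples. The p-values can therefore be smaller than 5 mice compared in the named classes alone would give. SE is the log2 difference divided by the square root of F. DESeq2 1.42.0, no low-count filter, no block, at least 1000 UMIs, leaving out each library, total-count scaling and leaving out single clusters were also tried, the last 2 and the doublet scores after seeing the data. Between days no test was made; intervals for counts and ratios are exact at 95% and cover counting error only. The scripts were tested on simulated data. In each class comparison the 3 called members with the largest rise and fall and the same sign in every library were named, with the isoform groups and the 5 largest day 12 ratios per class; other members are named after their values were seen. Members and gene lists were chosen with earlier results of these data known. Promoters are from RefSeq (GRCm38.p6), for 70 of 88 members; gene positions are from the GENCODE annotation of the same build.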

Additional observations from a re-analysis of the deposited data

Results flagged for a closer look

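In 66 groups of 5 libraries, 7 held a library whose gap to its nearest neighbor exceeded, as a share of the range, Dixon's 95% critical value for 5 samples, where chance gives about 1 in 20 groups. The summed member level of immature neutrophil-like cells was 138 UMIs per 10000 at day 9 and 129 to 131 in the other libraries. Atp5c1 in plasmacytoid dendritic-like cells was 4.94 at day 12, from 70 UMIs, and 3.72 to 3.98 elsewhere. Cox6a2 in NK-like cells was 3.13 at day 3 and 0.168 to 0.534 elsewhere. Ndufaf2 in non-cycling pro/pre-B-like cells was 0.324 at day 12, from 2 UMIs, and 0.147 to 0.162 elsewhere. Ndufaf5 in monocyte-like cells was 0.112 at day 12, from 23 UMIs, and 0.0607 to 0.0749 elsewhere. Ndufs5 in cycling pro/pre-B-like cells was 4.69 at day 3, the library that holds most of the cluster of large cells, and 3.26 to 3.45 elsewhere. Ndufs5 in non-cycling pro/pre-B-like cells was 2.43 at day 12, from 15 UMIs, and 3.03 to 3.17 elsewhere.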

How the results depend on the processing

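The number of members called between NK-like and T-like cells (19) was 9 without a low-count filter, 12 under the mitochondrial limit, 55 with total counts, and 6 (without day 9) to 13 when a library was left out, with 11 without day 6. Between plasmacytoid dendritic-like and mature B-like cells it was 35, and 60 with total counts. The other comparisons stayed within 1.5 times their count. Without the library block the counts were 64, 67, 64, 74, 15 and 32 in the order of the report. The comparisons pair classes within a library, and the block changed no count by over 1.5 times.

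The median of the mitochondrially encoded subunits turned to -0.64 (mitochondrial limit) and -0.37 (without cluster 02) in mature against precursor-like neutrophils, and to 0.69 and 0.33 in monocyte-like against mature neutrophil-like cells. Both settings remove cells high in these same genes, so that the turn was favored in advance. With the 50 most abundant genes out of the denominator the summed level was 445 in neutrophil precursor-like and GMP-like, 439 in cycling pro/pre-B-like, 414 in cycling monocyte-like, 398 in immature neutrophil-like, 391 in monocyte-like, 355 in NK-like, 354 in plasmacytoid dendritic-like, 347 in stem and multipotent progenitor-like, 321 in conventional dendritic-like, 319 in non-cycling pro/pre-B-like, 290 in T-like, 277 in mature neutrophil-like and 264 in mature B-like cells. As a mean over cells it was 249 in GMP-like, 233 in NK-like, 181 in T-like, 301 in cycling and 219 in non-cycling pro/pre-B-like, 168 in mature B-like and 239 in plasmacytoid dendritic-like cells, and cycling monocyte-like cells were then highest. The log2 ratio of day 12 to day 0 became -0.057, 0.118 and 0.103 in immature neutrophil-like, mature B-like and mature neutrophil-like cells without the 50 genes, 0.112 in mature B-like cells without the highest doublet scores, and -0.0687 and 0.0190 in mature and precursor-like neutrophils as a mean over cells. The cause was not tested. Mature B-like cells, with 14 cells left, gave no day 12 value under the mitochondrial limit. The same held for cycling pro/pre-B-like (6 cells), non-cycling pro/pre-B-like (7), plasmacytoid dendritic-like (4) and stem and multipotent progenitor-like cells (7). At day 12 the limit left 26 of 237 T-like and 44 of 224 GMP-like cells. Of the named calls, Ndufv1 was lost in 3 and Ndufaf6 in 9 alternatives (edgeR adjusted p = 0.0504 to 0.158 for the latter). Low depth limits Ndufaf2, Ndufaf5 and Ndufaf6 and every class with under 50 cells at day 12.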

Other observations

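Classes too small for the comparisons also differed in the summed member level. It was 243 UMIs per 10000 (95% interval 239 to 247, exact Poisson, counting error only) in 57 basophil or mast-like cells, 230 (213 to 247) in 9 stromal or endothelial-like cells and 156 (152 to 159) in 35 plasma-like cells. In 69 erythroid-like cells, which fill with globin RNA, it was 33.7 (30.8 to 36.9). The 754 cells of unnamed clusters had 240 (238 to 241).

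Rare isoforms were seen in few cells. Cox4i2, the isoform of complex IV subunit 4 known from lung, had 32 UMIs in 28 of 1068 GMP-like cells and 24 UMIs in cycling monocyte-like cells, and 0 in 2392 mature B-like cells. Cox7a1, the muscle-type isoform, had 59 UMIs in 8.17% of cycling pro/pre-B-like cells and 4 UMIs in 814 non-cycling ones. These classes differ in depth, with medians of 10890, 11059, 1666, 7378 and 1845 UMIs per cell in the order named, and no test was made.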
